A study of Mus musculus with 12 samples.

Results

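The complement and coagulation genes of the mouse aorta form a set of 39, of which 21 belong to complement and 18 to coagulation and fibrinolysis, out of 27884 genes named on the array. They were matched by gene name and were measured by 50 of the 55681 gene probes. RNA came from the descending aorta of male C57BL/6 mice aged 20 months (6 mice) or 6 months (6 mice), with 1 array per mouse. All animals received standard chow and water freely. The vessel had been flushed through the heart and cleaned of periadventitial fat and connective tissue before RNA was taken from the whole piece. All 7 brown and all 7 white fat markers were nonetheless above background on all 12 arrays, Ucp1 at 7.28 ± 0.55 (SD, log2) at 20 months and 7.92 ± 0.65 at 6 months. The comparison asks how the local supply of these transcripts differs between old and adult aorta.

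Complement is a cascade of plasma proteases that marks surfaces for removal and can perforate membranes. C1q bound to its target activates C1r and C1s, which cleave C4 and C2, and all routes meet at C3, whose fragments attract cells through receptors. Coagulation starts when tissue factor meets factor VII, proceeds through factor X to thrombin, and is held back on vessel walls by thrombomodulin, the protein C receptor, protein S and tissue factor pathway inhibitor, while plasmin dissolves the clot. The liver makes most of the circulating proteins, whereas macrophages make C1q, and vessel wall cells carry tissue factor and the surface anticoagulants.

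An array probe is a 60-base DNA strand. The probes below read C1qa and C1qb, chains of C1q, and the protease gene C1ra, which belong to 1 functional unit, and tissue factor (F3) and factor X (F10), where different probes of a gene gave different signals. The 30-base run in capitals is bases 18 to 47 of the brighter of the 2 F10 probes, and it belongs to the B1 family of short interspersed repeats. All positions are those in the array files, on mouse build mm9.
C1qa, chr4:136452409-136452468, minus strand: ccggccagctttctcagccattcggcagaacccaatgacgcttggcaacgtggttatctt
C1qb, chr4:136436578-136436637, minus strand: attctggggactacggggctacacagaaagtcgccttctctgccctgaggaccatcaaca
C1ra, chr6:124472674-124472733, plus strand: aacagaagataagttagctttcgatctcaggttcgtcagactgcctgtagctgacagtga
F3, second probe, chr3:121434609-121435346, plus strand, split over exons: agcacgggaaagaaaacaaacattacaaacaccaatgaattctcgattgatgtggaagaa
F10, second probe, chr8:13055774-13055833, plus strand: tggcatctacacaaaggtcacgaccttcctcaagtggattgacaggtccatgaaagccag
F10, repeat run of the bright probe, plus strand: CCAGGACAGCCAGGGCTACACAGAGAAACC

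All values are log2 signals relative to the array's 75th percentile, and a change is the mean at 20 months minus the mean at 6 months. A probe counted as measured where 6 or more of the 12 arrays marked it as well above background, and the brightest such probe stood for its gene. Of the 39 genes, 31 were measured, 19 of complement and 12 of coagulation and fibrinolysis, and 30 of these were above background on all 12 arrays. F10 is in all counts of measured genes through a probe that is not shown to measure it, as given below. No probe of the set was saturated. The 12 arrays lay on 3 slides, each with 2 arrays of either age, of which slide 3 had a scan of its own, and between 47.5% and 55.8% of gene probes were above background on an array. All 20-month arrays lay in column 3 of their slide and the 6-month arrays in columns 1 and 4, so that array position and age cannot be told apart. Markers of smooth muscle (7 of 7), endothelium (8 of 8) and fibroblasts (7 of 7) were above background on all arrays. Heart muscle markers, as a mean centred per gene, were high in 20 months replicate 1 (3.18) and 6 months replicate 1 (2.04), and those of T and NK cells in 6 months replicate 4 (1.70). Without these 3 arrays none of the 31 measured genes of the set passed the test either. The median change was then 0.05 for complement and 0.09 for coagulation genes. Fewer cells of a type and less RNA per cell cannot be told apart in such samples.

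None of the 31 genes passed an adjusted p (limma, Benjamini-Hochberg over 16759 genes) under 0.05. Over all genes 53 did, or 0.316%, of which 44 (0.263%) were higher and 9 (0.0537%) were lower at 20 months. The smallest adjusted p was 0.348 among the complement genes and 0.291 among the coagulation genes. At an unadjusted p under 0.05 there were 6 of the 31 genes, 19.4%, all with positive changes, beside 4.58% of all genes with positive and 3.41% with negative changes. The exact permutation test over the 924 assignments of arrays gave an unadjusted p under 0.05 for 4 of them, beside 4.62% of all genes with positive and 3.43% with negative changes. No gene of the set had the 6 values of 1 age all above the 6 of the other, which 0.817% of all genes did. Fold changes lay between 0.824 and 1.32, so the differences between ages were small on this scale, with standard errors of 0.08 to 0.21.

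Among the complement genes 10 changes were positive and 9 negative, with a median of 0.11 and a range of -0.28 to 0.34. Among the coagulation and fibrinolysis genes 9 were positive and 3 negative, with a median of 0.06 and a range of -0.11 to 0.41. Without 6 months replicate 4 the medians were lower, at 0.03 for complement and 0.02 for coagulation genes. Without 20 months replicate 3 they were 0.06 for complement and -0.002 for coagulation genes, so the positive coagulation median rested on that array. Over all genes 43.8% of changes were positive, the median was -0.02 and the middle 90% lay between -0.30 and 0.28. Of the 31 genes 23 lay within that span, 8 above it and 0 below it. The 8 were the 3 C1q chains, C2, C3ar1, C5ar1, F3 and Plaur. These are not independent genes, since the C1q chains varied together between mice, as given below. Nor are the 6 with an unadjusted p under 0.05 (limma), which include C1qa and C1qb. The change had the same direction on all 3 slides for 11 of 19 complement genes and for 6 of 12 coagulation genes. No share over all genes is given beside these counts, so they carry no comparison.

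**Figure D1:**
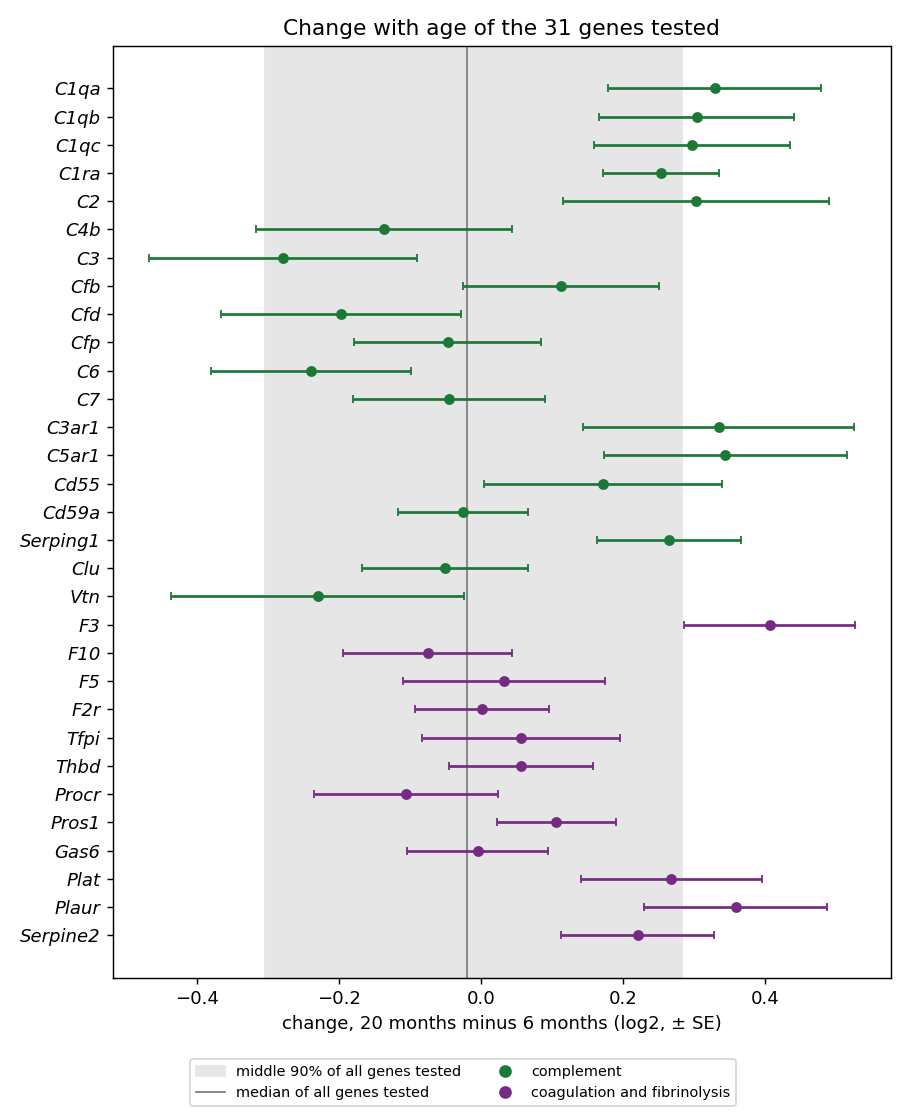
Change with age of each measured gene, as the mean at 20 months minus the mean at 6 months (log2, horizontal axis) with its standard error, complement in green and coagulation and fibrinolysis in purple. Grey shading marks the middle 90% of all genes tested, from -0.30 to 0.28, and 8 of the 31 genes lie to its right and 0 to its left.

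The start of the classical pathway held the complement gene with the smallest p. C1ra encodes the protease C1r, which C1q activates. Its signal was 3.22 at the lowest, 3.31 at the median and 3.39 at the highest in the 6 aortas at 20 months, against 2.82, 3.10 and 3.24 in the 6 at 6 months. Of the aortas at 20 months 5 lay above every aorta at 6 months, and the groups met only at the edge. The change was 0.25 ± 0.08 (SE), or 1.19-fold, with a 95% interval of 0.08 to 0.43 and an adjusted p of 0.348 (limma). The exact two-sided permutation p, unadjusted, was 0.00433. On the single slides the change was 0.12, 0.44 and 0.20. Without 6 months replicate 4, where C1ra was lowest, it was 0.21. The second C1ra probe averaged 2.88 at 20 months and 2.65 at 6 months. A closely related copy of the gene exists in mice, and the signal may hold both.

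C1qa, C1qb and C1qc encode the 3 chains of C1q, the recognition protein, and their probes lie next to each other on chromosome 4. C1qb read 2.22 at the lowest, 2.26 at the median and 2.63 at the highest at 20 months, against 1.58, 2.08 and 2.47 at 6 months. The groups overlapped, with 2 of 6 aortas at 20 months above the highest at 6 months, and all 6 above the median at 6 months. Its change was 0.30 ± 0.14, or 1.23-fold, with a 95% interval of 0.01 to 0.60, an adjusted p of 0.609 (limma) and an exact permutation p of 0.0584.
C1qa read 2.50, 2.65 and 3.03 at 20 months in the same order, against 2.05, 2.37 and 2.88 at 6 months, a change of 0.33 ± 0.15. C1qc read 2.79, 2.83 and 3.10 at 20 months, against 2.18, 2.60 and 3.07 at 6 months, a change of 0.30 ± 0.14. For each chain the 3 slides gave changes of one sign, from 0.19 for C1qb on slide 3 to 0.46 for C1qb on slide 2. The shift between ages lay mostly at the low end: the lowest 6-month values were well below any at 20 months, while the highest values lay closer together. Without the 3 arrays with markers of heart muscle or T and NK cells the changes were 0.24 for C1qa, 0.18 for C1qb and 0.22 for C1qc.

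Masp1, the lectin pathway protease, was above background on 1 array with one probe and on 0 with the other, so that route could not be followed through it. Of the components that the classical and lectin routes cleave, C2 averaged 3.21 ± 0.23 (SD, n = 6) at 20 months and 2.91 ± 0.45 at 6 months. C4b averaged 5.02 ± 0.13 at 20 months and 5.16 ± 0.46 at 6 months. Their changes, 0.30 ± 0.19 (SE) and -0.14 ± 0.18, were not distinguishable from 0 (adjusted p 0.717 and 0.869, limma). C4b has a near-identical copy in mice that its probe may also read.
C3, the component on which the routes converge, read 6.61 at the lowest, 6.83 at the median and 7.29 at the highest at 20 months, against 6.65, 7.21 and 7.66 at 6 months. The ranges overlapped over most of their length. Its change of -0.28 ± 0.19 was the most negative of the set, with a 95% interval of -0.69 to 0.13 and an adjusted p of 0.746 (limma). The second C3 probe averaged 6.28 at 20 months and 6.53 at 6 months. C3 and the C1q genes thus had changes of opposite sign, neither past the test.

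The alternative pathway genes Cfb (factor B), Cfd (factor D, which is made in fat) and Cfp (properdin, made by leukocytes) had changes of 0.11 ± 0.14, -0.20 ± 0.17 and -0.05 ± 0.13. Cfd averaged 9.29 ± 0.17 (SD) at 20 months and 9.48 ± 0.41 at 6 months, and no aorta at 20 months lay above the median at 6 months. Markers of white fat (7 of 7 measured, 6 with negative changes, none called) ranged over the mice from -0.38 to 0.44 at 20 months and from -0.24 to 0.40 at 6 months as a mean centred per gene. Those of brown fat (7 of 7 measured, all with negative changes, none called, median change -0.39) ranged from -0.52 to 0.49 at 20 months and from -0.47 to 0.83 at 6 months. The part of either in the Cfd values was not tested. Without 6 months replicate 2, where Cfd was lowest, its change was -0.36. Of the terminal components, C7 had a change of -0.05 ± 0.14. C6 was the 1 measured gene not above background on every array, with 4 of 6 arrays at 20 months and 6 of 6 at 6 months, and its change of -0.24 ± 0.14 was positive on slide 3 (0.16) and negative on the others.

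The anaphylatoxin receptors C5ar1 and C3ar1, carried by macrophages and other leukocytes, were above background on all arrays. C5ar1 averaged -2.33 ± 0.23 (SD) at 20 months and -2.68 ± 0.39 at 6 months. C3ar1 averaged -2.04 ± 0.35 at 20 months and -2.37 ± 0.38 at 6 months. The changes were 0.34 ± 0.17 (SE) and 0.33 ± 0.19, with adjusted p of 0.667 and 0.691 (limma). They were uneven over the slides, at 0.19, 0.14 and 0.70 for C5ar1 and 0.53, 0.41 and 0.07 for C3ar1. With normexp background correction they were 0.14 and 0.12.

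Serping1 encodes the C1 inhibitor, which blocks C1r and C1s and also proteases of the contact system. It read 5.94 at the lowest, 6.09 at the median and 6.15 at the highest at 20 months, against 5.42, 5.81 and 6.03 at 6 months. At 20 months 4 of 6 aortas lay above every aorta at 6 months. The change was 0.26 ± 0.10, or 1.20-fold, with a 95% interval of 0.05 to 0.48, an adjusted p of 0.512 (limma) and an exact permutation p of 0.0173. It was uneven over the slides, at 0.04, 0.52 and 0.23. Without 6 months replicate 4, where Serping1 was lowest, it was 0.19. The second Serping1 probe averaged 4.73 at 20 months and 4.46 at 6 months.
The other measured regulators showed no difference beyond their spread. Cd55 (0.17 ± 0.17) and Cd59a (-0.03 ± 0.09) protect host cells at the membrane. Clu, or clusterin (-0.05 ± 0.12), and Vtn, or vitronectin (-0.23 ± 0.21), hold back the terminal complex in plasma. The protease factor I (Cfi), which inactivates C3b, was above background on 0 of 12 arrays.

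**Figure D2:**
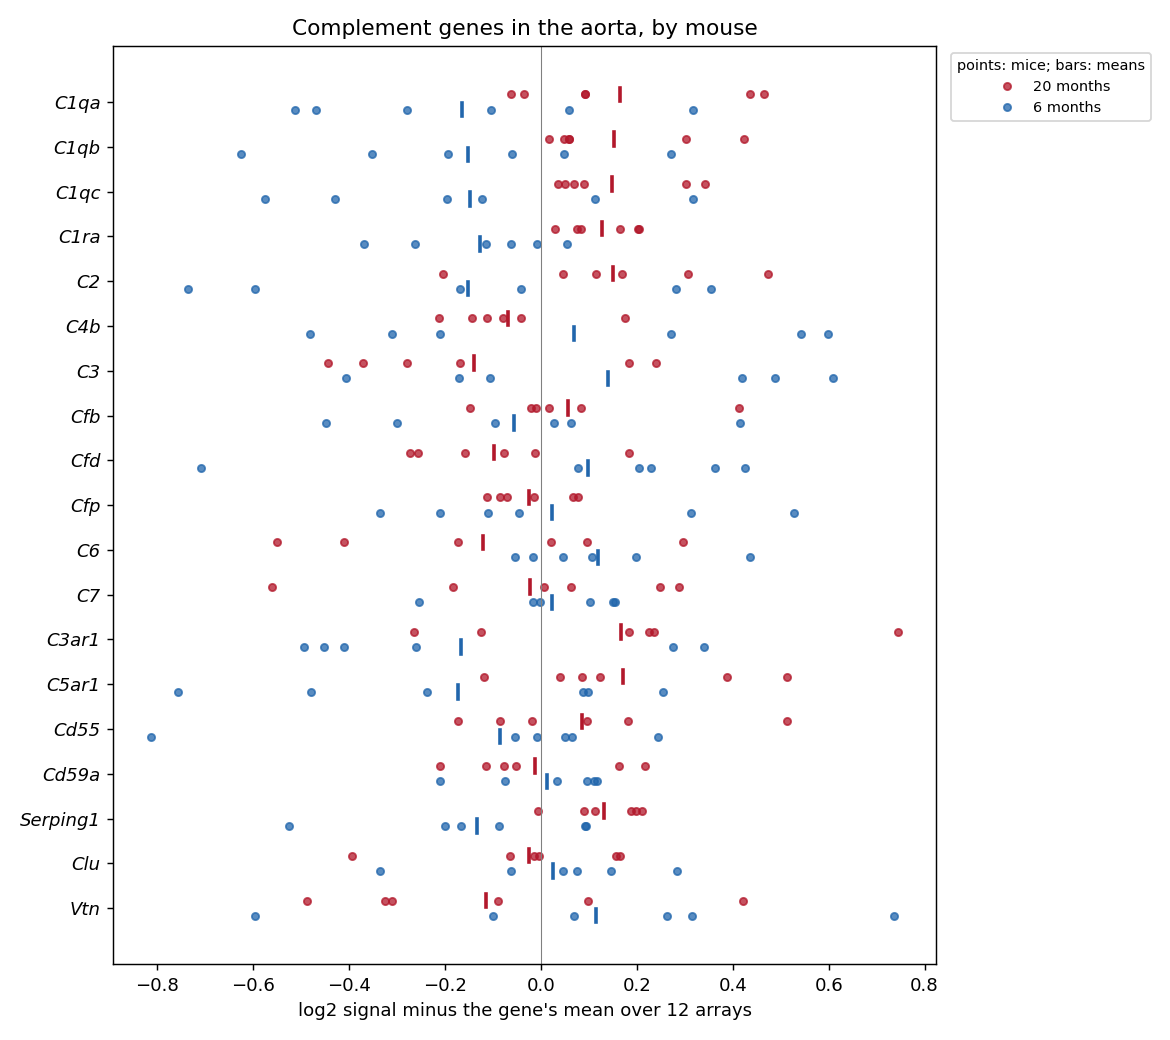
Signal of the 19 measured complement genes in each mouse, as log2 signal minus the gene's mean over the 12 arrays (horizontal axis), with 20 months in red above 6 months in blue, points for mice and bars for means. All 6 values at 20 months lie above the median at 6 months for C1ra, the C1q chains, C3ar1 and Serping1, and the groups overlap in every row.

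F3, tissue factor, which starts coagulation, had the smallest p and the largest change of the set. It read 3.78 at the lowest, 3.92 at the median and 4.27 at the highest at 20 months, against 3.27, 3.61 and 3.88 at 6 months. At 20 months 5 of 6 aortas lay above every aorta at 6 months, and the groups overlapped by the remaining one. The change was 0.41 ± 0.12 (SE), or 1.32-fold, with a 95% interval of 0.15 to 0.67, an adjusted p of 0.291 (limma) and an exact permutation p of 0.00649. The slides gave 0.24, 0.62 and 0.36, and with slide as a fixed block the adjusted p was 0.0566, the smallest of any gene of the set under any alternative. The second F3 probe, whose sequence is printed above, was dimmer and averaged 0.84 at 20 months and 0.50 at 6 months, a change of 0.34 in the same direction.

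The next steps of the cascade were poorly covered. F7, the partner of tissue factor, was above background on 0 arrays with both probes. F8, the cofactor factor VIII, reached 4 arrays with one probe (2 of either age) and 0 with the other. F5, the cofactor factor V, averaged -3.01 ± 0.35 (SD) at 20 months and -3.04 ± 0.11 at 6 months, but its second probe was above background on 1 array.
F10 gave 2 readings that differ. Its bright probe, at chromosome 8, bases 13056119 to 13056178, averaged 10.23 ± 0.24 at 20 months and 10.30 ± 0.19 at 6 months and ranked 3 of 55630 probes by mean signal. Its second probe was above background on 1 of 12 arrays. The 30-base run of the bright probe occurs on the same strand in 3 gene probes, assigned to Elk1, F10 and Med16, which ranked 7, 3 and 15 by mean signal. Its reverse complement occurs in 2 probes, ranked 3972 and 5056. The run was found on either strand in 8 of 32851 RefSeq promoter windows (GRCm38.p6). The bright signal is therefore not shown to measure F10, and the median change of the coagulation genes without F10 was 0.06, and 0.08 without F10 and F5. F2r, the thrombin receptor PAR1, had a change of 0.00 ± 0.09 with a 95% interval of -0.20 to 0.21.

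The surface and plasma anticoagulants had small changes. Thbd (thrombomodulin, which turns thrombin towards protein C) averaged 3.57 ± 0.15 (SD) at 20 months and 3.51 ± 0.20 at 6 months. Procr (the endothelial protein C receptor) averaged 2.04 ± 0.22 at 20 months and 2.14 ± 0.25 at 6 months. Pros1 (protein S) averaged 2.55 ± 0.07 at 20 months and 2.44 ± 0.17 at 6 months. None of their changes, 0.06 ± 0.10 (SE), -0.11 ± 0.13 and 0.11 ± 0.08, passed the test (smallest adjusted p 0.767, limma).
Tfpi, the inhibitor of the tissue factor complex, was read by 3 probes. The brightest gave a change of 0.06 ± 0.14, and the other two averaged -0.64 and -1.42 at 20 months against -0.88 and -1.61 at 6 months. Gas6, a ligand of TAM receptors related to protein S, had a change of -0.00 ± 0.10 with a 95% interval of -0.22 to 0.21. Tfpi2 and Serpind1 (heparin cofactor II) were above background on 0 arrays.

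Plasmin formation depends on Plat (tissue plasminogen activator) and Plau (urokinase), whose receptor is Plaur. Plaur read 0.61 at the lowest, 1.02 at the median and 1.50 at the highest at 20 months, against 0.62, 0.66 and 0.86 at 6 months. Of the aortas at 20 months 5 lay above every aorta at 6 months and the remaining one below all of them. The change was 0.36 ± 0.13, or 1.28-fold, with a 95% interval of 0.08 to 0.64, an adjusted p of 0.454 (limma) and an exact permutation p of 0.0238. It was 0.08 on slide 1, 0.47 on slide 2 and 0.52 on slide 3.
Plat read 1.79, 1.89 and 2.01 at 20 months, against 1.23, 1.60 and 2.01 at 6 months, so the highest values of both ages met. Its change was 0.27 ± 0.13, with an adjusted p of 0.645 (limma) and an exact permutation p of 0.0909. Serpine2, a serpin that inhibits thrombin and plasminogen activators on cells, averaged 4.01 ± 0.13 (SD) at 20 months and 3.79 ± 0.23 at 6 months, a change of 0.22 ± 0.11 (SE). Plau was above background on 1 array and Serpinf2, which inhibits plasmin, on 0.

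**Figure D3:**
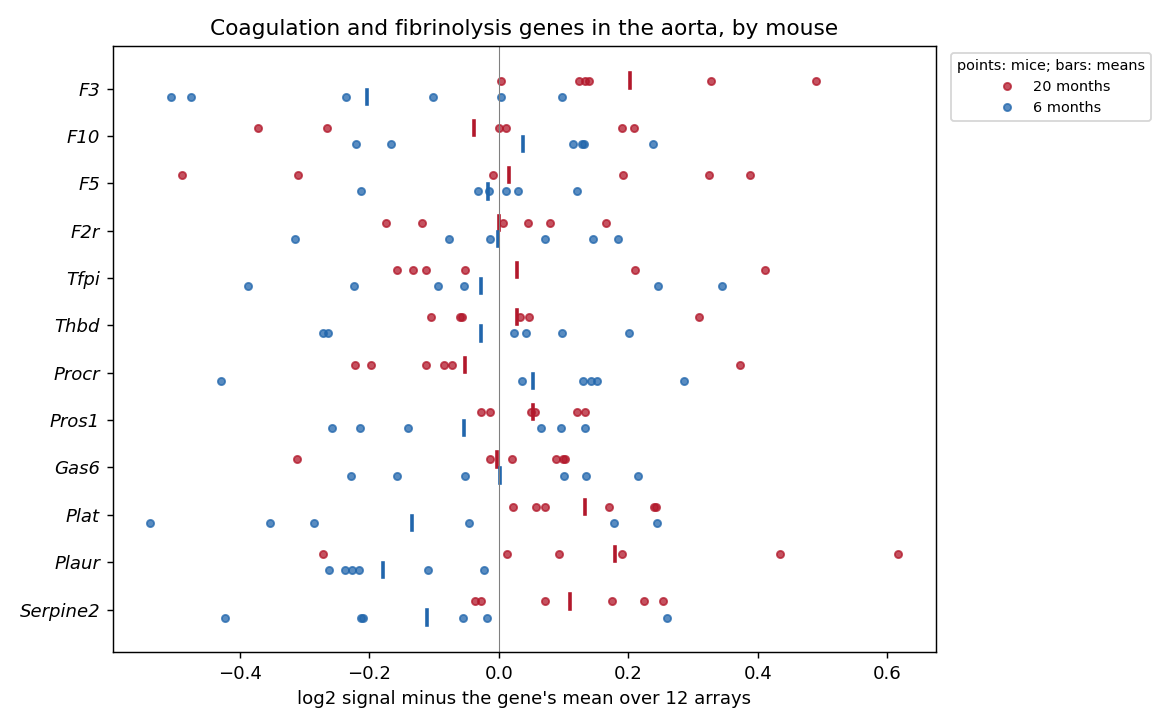
Signal of the 12 measured coagulation and fibrinolysis genes in each mouse, as log2 signal minus the gene's mean over the 12 arrays (horizontal axis), with 20 months in red above 6 months in blue, points for mice and bars for means. F3 and Plaur have 5 of 6 values at 20 months above every value at 6 months, and the F2r and Gas6 means coincide.

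The genes also differed in how much mice of 1 age varied. The standard deviation was larger at 6 months for 16 of 19 complement genes (84.2%), with a median of 0.20 at 20 months and 0.33 at 6 months. For the coagulation genes it was larger at 6 months in 9 of 12, with medians of 0.17 at 20 months and 0.19 at 6 months. Over all genes tested it was larger at 6 months in 65.9%, with medians of 0.18 at 20 months and 0.21 at 6 months. C4b (0.13 at 20 months, 0.46 at 6 months) and Cfp (0.08 at 20 months, 0.33 at 6 months) lay farthest on that side by ratio, and Plaur (0.31 at 20 months, 0.09 at 6 months) and F5 (0.35 at 20 months, 0.11 at 6 months) on the other. Without 6 months replicate 4, in which T and NK cell markers were high, and replicate 6 the complement count was 14 of 19 (73.7%) beside 57.7% of all genes. These counts describe the mice and carry no test.

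**Figure D4:**
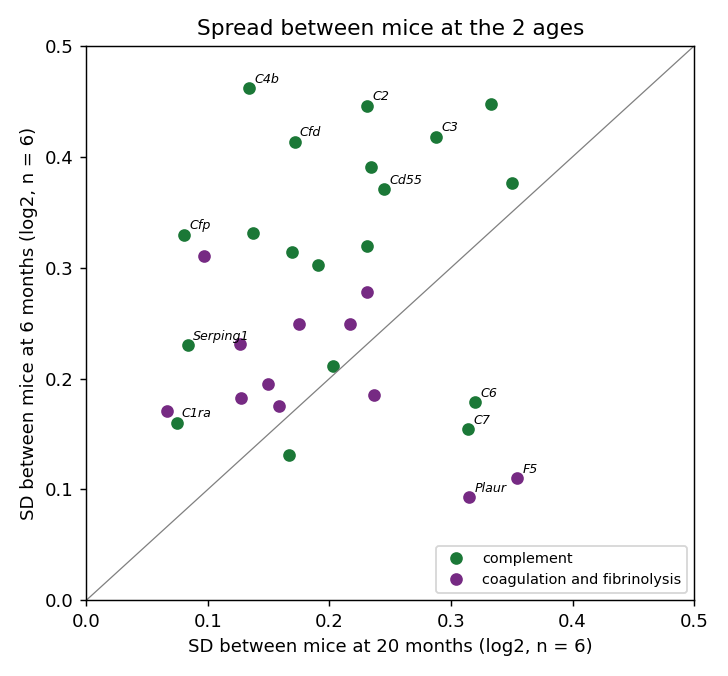
Standard deviation between the 6 mice at 20 months (horizontal axis) and at 6 months (vertical axis) for each measured gene, in log2 units, complement in green and coagulation and fibrinolysis in purple, with the line of equality. Of the 19 complement genes 16 lie above the line, while C6, C7, Plaur and F5 lie well below it.

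The C1q chains varied together between mice of the same age. With age means removed, the 12 arrays gave Pearson's r of 0.953 (Spearman's rho 0.923) for C1qa with C1qc, 0.969 (0.930) for C1qb with C1qc and 0.939 (0.860) for C1qa with C1qb. The permutation p within age, adjusted over the 65 correlations computed, was at most 0.00182 for r and at most 0.0194 for rho. Without the 2 arrays farthest from the median r was 0.937, 0.928 and 0.933.
A list of 22 macrophage markers, which holds no gene of the set, varied with them. Their mean correlated at r = 0.928 (rho 0.930) with C1qa, 0.899 (0.860) with C1qb and 0.899 (0.888) with C1qc, with permutation p for r, adjusted, of 0.00182, 0.00217 and 0.00306. The same held for C3ar1 at 0.944 (0.881) and Cfp at 0.854 (0.825), with permutation p for r, adjusted, of 0.00182 and 0.00626. The adjusted permutation p for rho of these 5 genes was at most 0.0217, and r without the 2 farthest arrays was 0.893, 0.811, 0.904, 0.888 and 0.824. The other complement genes did not pass for r or rho, among them C5ar1 (r = 0.425), C1ra (0.316) and Serping1 (0.122). No coagulation gene passed, nor did any correlation with mesothelial markers (smallest adjusted permutation p 0.176).

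The macrophage markers themselves had positive changes in 21 of 22 genes with a median of 0.25, and none was called. At an unadjusted p under 0.05 (limma) there were 7 of the 22, all with positive changes. Over all genes it was 4.58% with positive and 3.41% with negative changes. The mean of the macrophage markers, centred per gene, ranged from -0.02 to 0.46 at 20 months (median 0.09) and from -0.37 to 0.24 at 6 months (median -0.19). The mean of the C1q chains ranged from 0.01 to 0.39 at 20 months and from -0.57 to 0.30 at 6 months, lowest in 6 months replicates 4 and 2, where the macrophage markers were lowest too. The part of macrophage content in the C1q change was not tested. Of 8 mesothelial markers 6 were measured, with negative changes, a median of -1.74 and none called, and their mean lay between -1.77 and 0.61 at 20 months and between -0.11 and 1.91 at 6 months. Their part in the changes given here was not tested. Platelet markers (4 of 6 measured, all with positive changes, median 0.40) ranged from -0.01 to 0.78 at 20 months and from -0.59 to 0.30 at 6 months, and their part in the coagulation genes was not tested. Mast cell markers (5 of 6 measured, all with positive changes, median 0.63) ranged from 0.04 to 0.56 at 20 months and from -0.70 to 0.26 at 6 months, and 1 of them, Tpsb2, was called with a change of 0.60 ± 0.11 (SE, adjusted p 0.0402, limma). Erythroid markers (3 of 4 measured, all with positive changes, none called, median 0.58) ranged from -0.30 to 0.85 at 20 months and from -0.69 to 0.54 at 6 months. Of 7 hepatocyte markers 2 were measured and none called, Ahsg with a change of 0.64 ± 0.15 (adjusted p 0.12, limma) and Serpina1a with 0.11 ± 0.17. The part of these cells in the changes of the set was not tested.

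**Figure D5:**
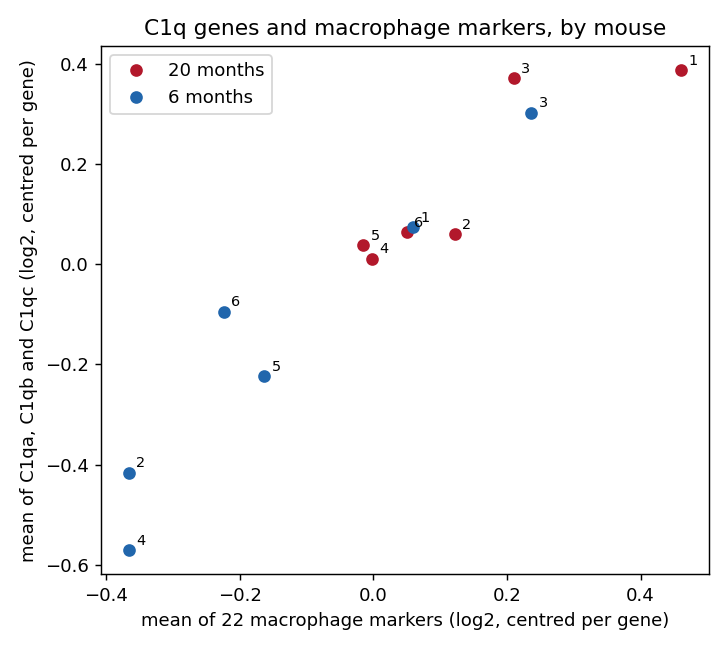
Mean of C1qa, C1qb and C1qc (vertical axis) against the mean of 22 macrophage markers (horizontal axis) in each mouse, both in log2 units centred per gene over 12 arrays, 20 months in red and 6 months in blue, numbered by replicate. Points of both ages lie along one band, with 6 months replicates 2 and 4 at its lower end and 20 months replicate 1 at its upper end.

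Further genes of both pathways were read for context. Of 30 other complement genes 17 were measured, with 11 positive and 6 negative changes, a median of 0.05 and none called. Vsig4, a complement receptor of resident macrophages, averaged -1.03 ± 0.40 (SD) at 20 months and -2.11 ± 0.77 at 6 months, a change of 1.08 ± 0.32 (SE) with an adjusted p of 0.284 (limma). The next were Fcna (ficolin A, a lectin pathway sensor) at 0.44 ± 0.19, C1s1 (the protease C1s) at 0.22 ± 0.12 and Itgb2 (the shared chain of complement receptors 3 and 4) at 0.23 ± 0.15. Itgb2 had an adjusted p of 0.736 (limma).
Of 40 other coagulation genes 17 were measured, with 7 positive and 10 negative changes and a median of -0.03. F13a1, the clot-crosslinking factor XIII subunit that macrophages also make, was the 1 called gene, reading 3.60, 3.70 and 3.93 (lowest, median, highest) at 20 months against 2.90, 3.14 and 3.45 at 6 months. All 6 values at 20 months lay above the 6 at 6 months, a rise of 0.55 ± 0.10, or 1.47-fold, with an adjusted p of 0.0357 (limma). It passed under 10 of 26 alternatives, with adjusted p of 0.0157 to 0.392, and lost the call when any of 11 of the 12 arrays was left out, while its change stayed between 0.50 and 0.61 under all 26. Mertk, a receptor for Gas6, had a change of 0.43 ± 0.15 (SE) and is also among the macrophage markers. S100a10, a partner of annexin A2 in plasmin formation, had a change of -0.26 ± 0.10 with an adjusted p of 0.508 (limma).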

How the data were processed

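Total RNA of 12 aortas was hybridised to Agilent 1-colour arrays. Per the labels' protocols 100 ng of RNA (integrity number 9.0 to 9.6) was labelled with Cy3. Per the file headers the authors used Feature Extraction 10.7.1.1 with the protocol GE1_107_Sep09 on design 028005, and probe positions are on mm9. The deposited intensity is the processed green signal, with background already subtracted and no scaling between arrays. Deposited log2 values of the same arrays, whose making is not given in the sources used here, were an alternative. Their column medians lay between -0.03 and 0.01, and per array they correlated at 0.898 to 0.985 with the centred scanner values, across probes, which are not independent replicates. In the fit they gave 50 called genes and a change of 0.435 for F3, as quantile normalization did. These alternatives are therefore not separate checks.

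The signal was taken to log2, outlier spots were left out, repeat spots were averaged, and arrays were scaled by subtracting the 75th percentile of their gene probes. Of 55681 gene probes 55630 were kept, 27583 passed the filter on background and 16759 genes were tested with limma 3.58.1 (R 4.3.3) on all 12 arrays, the model holding age alone, with Benjamini-Hochberg adjustment. The exact permutation test for single genes was two-sided on the difference of means. Members were matched by the array's gene name and other genes through RefSeq accessions and symbols (GRCm38.p6, names alone). The brightest probe stood for a gene. Saturation and the procedure were checked, the latter on simulated data. The arrays' number limits the precision.

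Genes described with the lowest, median and highest value are the 3 of smallest p in each list, and, of the other pathway genes, those called and the 4 of smallest p are named, except 1 that is not reported here. C1qa, C1qc and C3 were added after their values were seen. Members, lists and tests were chosen with earlier results of these data known. Replicates are labelled as separate mice. Their shared numbers were checked and do not pair the samples.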

Additional observations from a re-analysis of the deposited data

Results flagged for a closer look

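Of 62 groups of 6 values (31 genes at either age), 6 held a sample whose gap to its nearest neighbour took more of the group's range than Dixon's 95% critical share, and chance flags about 1 group in 20. Procr was set apart at both ages. In 20 months replicate 3 it was the highest at 2.46, with the next at 2.02 (ratio 0.749), and in 6 months replicate 4 it was the lowest at 1.66, with the next at 2.13 (ratio 0.651). Thbd was highest in the same 20 months replicate 3 at 3.85, with the next at 3.59 (ratio 0.637). Gas6 was lowest in 20 months replicate 1 at 6.70 (ratio 0.718). Cd55 was lowest in 6 months replicate 4 at -0.61, with the next at 0.15 (ratio 0.719), where markers of T and NK cells were high. Cfd was lowest in 6 months replicate 2 at 8.68, with the next at 9.46 (ratio 0.692).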

How the results depend on the processing

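None of the 31 genes was called under any of 25 alternatives fitted with a test, and 22 of them kept the sign of their change under all of them. The other 9, among them Gas6, F2r, F5 and Clu, turned sign under at least 1. The median change ranged from 0.03 to 0.18 for complement and from -0.00 to 0.12 for coagulation genes, and that of all genes from -0.03 to 0.01. The count of called genes over the array, 53 in the fit reported, was 33 with median scaling, 24 with no filter on dim probes, 80 with slide as a random block, 123 with array weights, 30 without 20 months replicate 1 and 6 months replicates 1 and 4 together and 21 to 59 with single arrays left out. The cause was not tested. With the replicate number as a block it was 6, and the numbers share no pairing: same-numbered arrays correlated at -0.36 to 0.32. The 1 call among other pathway genes became 0 with median scaling, no filter, the replicate block, the mean over a gene's probes, without those 3 arrays, and 0 to 1 with single arrays left out, and their median change, 0.01 in the fit reported, was -0.11 on slide 3 alone. F10 and F5 were left out, and 6-month replicates 4 and 6 dropped from the spread, as choices made after seeing the data. Probes below background on most arrays, such as those of F7, F8 and Plau, give no comparison.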
